A study of Mus musculus with 7 samples.

Results

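The lysosome and V-ATPase genes were a list of 39 genes, found by their symbols among the 27179 genes counted in RNA from cortical bone of the mouse femur. They comprised 8 subunits of the V1 sector of the vacuolar H+-ATPase (V-ATPase), 5 of its V0 sector, 2 accessory subunits, 5 lysosomal membrane proteins, 8 proteases, 6 glycosidases, 3 proteins of lipid handling and 2 transcription factors. All 39 had at least 0.65 CPM (the read count scaled to the depth of its library) in at least 3 libraries and were among the 15098 genes tested.

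Femora of 12-week-old female mice on a C57BL/6 background were flushed of marrow, and RNA was extracted from the whole bone that remained. In Dmp1Cre.Efnb2f/f mice, Cre recombinase under a Dmp1 promoter, which is active in late osteoblasts and osteocytes, was meant to remove both floxed alleles of Efnb2, the gene of the membrane ligand EphrinB2. The controls also carried Dmp1Cre but had wild-type Efnb2, and were littermates or cousins. There were 3 libraries with the label Dmp1Cre.Efnb2f/f, here the Efnb2f/f-labelled libraries, and 4 Dmp1Cre control libraries, and all mice had been given calcein and had been fasted before collection. The RNA came from all cells of the bone, so fewer cells of a type and less RNA per cell cannot be told apart.

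Lysosomes degrade material delivered by endocytosis and autophagy, and their hydrolases work at an acidic pH. The V-ATPase supplies the acid: its V1 sector hydrolyzes ATP in the cytosol, and its V0 sector carries protons across the membrane. In bone, osteoclasts also place V-ATPase and lysosomal enzymes at the ruffled border, where they dissolve mineral and digest matrix. Tfeb and Tfe3 are transcription factors of this system, and bind the CLEAR element, a short palindrome centered on an E-box, near the starts of many lysosomal genes.

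To look for that element, the promoters were read from the RefSeq table of GRCm38.p6, from 250 bases before to 50 bases after each start. Of the 39 genes, 32 had an entry, and Atp6v1b2, Atp6v1c1, Atp6v1g1, Atp6v1h, Ctsb, Ctsh and Npc1 had none. The motifs searched are palindromes and so the same on both strands. The core CACGTG was present in 11 of 32 promoters (34.4%), compared to 8.09% of 27025 genes with an entry. The longer TCACGTGA, which contains that core, was present in 7 of 32 (21.9%), compared to 1.12% of all genes. A match describes the letters and does not show that a factor is bound. The windows shown are from the promoters with TCACGTGA, or with more than 1 CACGTG. They are shown because they hold the core of the motif that Tfeb and Tfe3 recognize. Each runs 5′ to 3′ on the strand of its gene. Capitals mark TCACGTGA, or CACGTG in Atp6v0b and Lamp1, and a further CACGTG in the window of Mcoln1 is in lower case.
Atp6v1a, chr16:44139354-44139421, minus strand: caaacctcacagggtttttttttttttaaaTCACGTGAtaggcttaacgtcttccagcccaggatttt
Atp6v0b, chr4:117887312-117887395, minus strand: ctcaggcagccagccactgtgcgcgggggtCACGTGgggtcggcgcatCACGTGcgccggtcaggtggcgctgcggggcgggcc
Atp6v0d1, chr8:105566045-105566098, minus strand: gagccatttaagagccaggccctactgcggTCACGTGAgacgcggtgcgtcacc
Atp6v0e, chr17:26676368-26676415, plus strand: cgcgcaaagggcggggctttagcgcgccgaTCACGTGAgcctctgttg
Ctsa, chr2:164833730-164833792, plus strand: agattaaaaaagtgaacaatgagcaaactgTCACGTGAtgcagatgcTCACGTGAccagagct
Ctsd, chr7:142387889-142387956, minus strand: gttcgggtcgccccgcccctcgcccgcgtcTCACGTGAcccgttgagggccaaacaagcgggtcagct
Gla, chrX:134601163-134601255, minus strand: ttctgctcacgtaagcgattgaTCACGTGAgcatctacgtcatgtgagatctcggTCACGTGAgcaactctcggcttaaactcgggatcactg
Lamp1, chr8:13159070-13159180, plus strand: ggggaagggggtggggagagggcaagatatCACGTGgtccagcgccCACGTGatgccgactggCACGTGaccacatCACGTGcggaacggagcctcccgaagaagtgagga
Mcoln1, chr8:3500443-3500510, plus strand: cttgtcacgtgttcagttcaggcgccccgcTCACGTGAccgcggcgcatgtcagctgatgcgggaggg

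The motif lay close to the start in some of these promoters and far from it in others. In Atp6v0d1, TCACGTGA began 4 bases before the start, and in Atp6v0e it began 2 bases after it. Ctsa held a pair, 13 bases before and 4 bases after 1 of its annotated starts, and Gla held a pair at 228 and 195 bases before. Lamp1 had 4 copies of the shorter CACGTG between 61 and 15 bases before its start. In Atp6v1a, Ctsd and Mcoln1, TCACGTGA began 132, 99 and 46 bases before the start. Ctsd and Mcoln1 each had a further CACGTG, at 245 and 71 bases before. Ctsl and Gaa each had a single CACGTG, at 236 and 140 bases before their starts.

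The libraries held between 17245556 and 22075778 counts, of which the 39 genes took 0.578% to 0.788%. Efnb2 had 322, 239 and 224 counts in the Efnb2f/f-labelled libraries and 164, 139, 110 and 117 in the controls, so the targeted gene was higher where the label says it was deleted. By PCR over the targeted region, the study found Efnb2 lost in sorted osteocytes of Dmp1Cre.Efnb2f/f mice with a GFP reporter, and kept in other cells. The counts given here cover the whole gene in all cells of the bone, and so do not measure that loss. Every direction given here is therefore between libraries as labelled. Controls 1 and 4 stood apart from the other 5 libraries on the first principal component (56.0% of the variance), which is taken up with the values it touches. All 5 osteocyte markers (Dmp1, Mepe, Sost, Phex and Fgf23) were detected, at a summed 252 to 495 CPM and 153 to 610 CPM in the Efnb2f/f-labelled libraries and the controls. Neutrophil markers, at 11867 to 14889 CPM and 16970 to 19825 CPM, and erythroid markers, at 6650 to 13535 CPM and 15559 to 43658 CPM, were detected after flushing. Skeletal muscle markers summed to 20944 to 34539 CPM and 10200 to 22250 CPM.

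None of the 39 genes passed the test between the genotypes. By the quasi-likelihood test of edgeR, with Benjamini-Hochberg adjustment, 0 of 39 had an adjusted p below 0.05, and the same was true of all genes tested (0%). At an unadjusted p below 0.05 there were also 0 of 39, compared to 9.66% of all genes (4.63% higher and 5.03% lower). The lowest unadjusted p was 0.0711, for Ctsl, and the adjusted values ran from 0.517 to 0.961. DESeq2 called 0 of 39 (0.477% of all genes), and gave 1 gene, Man2b1, an unadjusted p below 0.05 (12.6% of all genes). The limma pipeline, which weights libraries by their quality, called 3 of 39, Ctsl, Gaa and Npc1, all higher in the Efnb2f/f-labelled libraries (14.9% of all genes were called, 7.49% higher and 7.39% lower). At an unadjusted p below 0.05, limma had 4 of the 39 higher (15.1% of all genes) and 1 lower (17.7%). These calls are given with the values of each gene.

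Most of the differences had the same sign. The mean log2 level was lower in the Efnb2f/f-labelled libraries for 28 of 39 genes and higher for 11, and the median log2 fold change was -0.20, compared to 0.012 over all genes tested. Single values ranged from -0.55 for Atp6v0e to 0.41 for Ctsl, with standard errors from 0.14 to 0.27. That median depended on the libraries and on the fit. It was -0.18 with upper-quartile scaling, -0.22 with DESeq2 and -0.19 with each library's dependence on GC content and length removed. With parent cross as a block it was 0.13 and 28 of the 39 signs changed. That block compares only Efnb2f/f-labelled replicate 3 with control 3, since no other cross gave libraries of both genotypes. With limma the median was 0.0022, and with scaling by library size only it was -0.097, where the median of all genes was 0.094. Without controls 1 and 4 it was 0.043, 17 of the 39 signs changed, and 1 gene, Gaa, had an unadjusted p below 0.05 (10.2% of all genes higher, 7.22% lower). Without control 4 alone the median was -0.095. Leaving out control 3 instead gave a median of -0.28 and 9 genes with an unadjusted p below 0.05, all lower (8.51% of all genes lower, 7.34% higher). They were Atp6v0b, Atp6v0c, Atp6v0d1, Atp6v0e, Gusb, Hexa, Man2b1, Npc2 and Tfe3. Without control 2 there were 2, Atp6v0d1 and Atp6v0e, both lower (6.72% of all genes lower, 4.13% higher), and without Efnb2f/f-labelled replicate 3 there were 2, Npc1 and Ctsl, both higher (4.64% higher, 4.39% lower). With each library's dependence on GC content and length removed there were Gaa, higher (4.89%), and Neu1, Man2b1 and Tfe3, lower (9.65%). None of the 39 had an adjusted p below 0.05 in edgeR with any library left out.

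**Figure D1:**
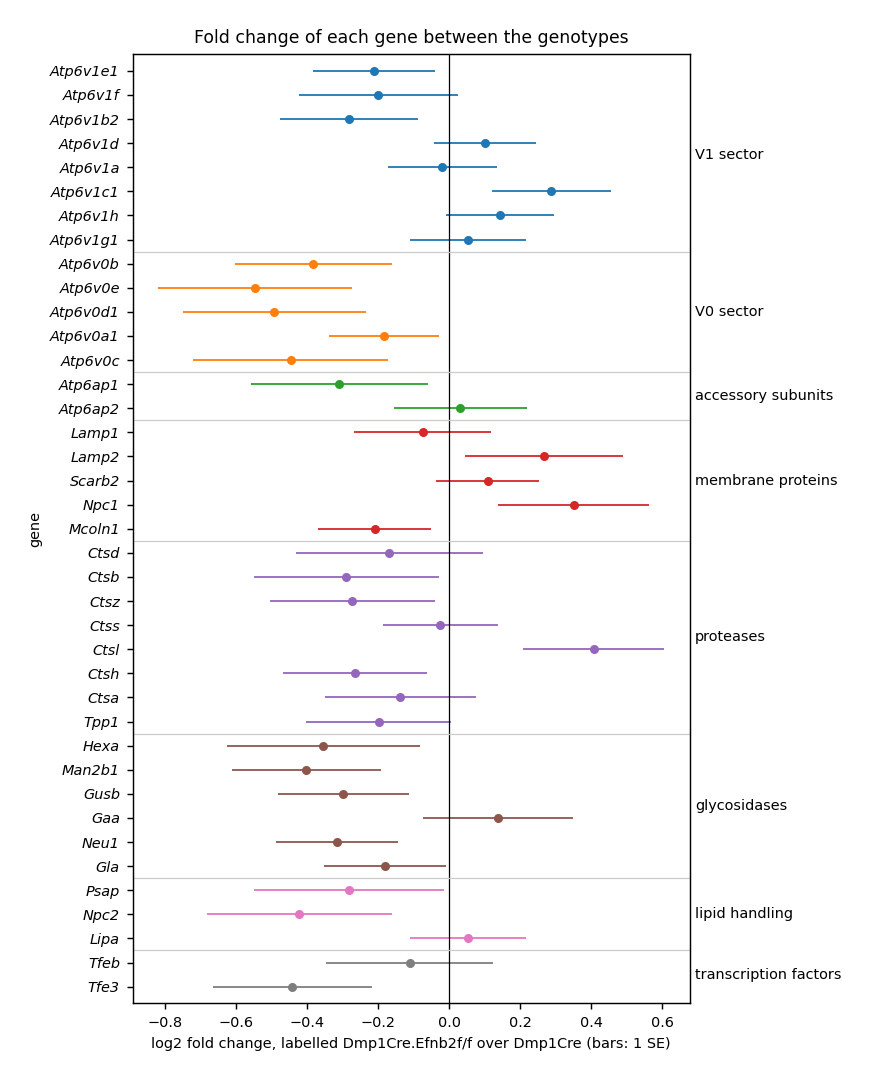
The log2 fold change of each of the 39 genes (x axis, Efnb2f/f-labelled libraries over Dmp1Cre, edgeR) is plotted by role, with bars of 1 standard error. The 5 subunits of the V0 sector all sit below 0, from -0.55 to -0.18, while the 8 of the V1 sector lie on both sides, from -0.28 to 0.29.

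The V1 sector lay on both sides of no difference: 4 of its 8 genes had a higher mean in the Efnb2f/f-labelled libraries, 4 had a lower mean, and the median log2 fold change was 0.017. This split depended on the fit. With the parent cross block 8 of 8 were higher (median 0.081), and with limma 6 of 8 (0.032), as without controls 1 and 4 (0.048). With the dependence on GC content and length removed, 6 of 8 were lower (-0.14). Atp6v1c1, a regulatory subunit that joins the stalks of the pump, lies on chromosome 15 from 38661904 to 38692444 of GRCm38 and was at 57.4, 61.2 and 54.6 CPM in the Efnb2f/f-labelled libraries and 43.4, 54.4, 52.6 and 38.7 CPM in the controls. Its groups did not overlap, every Efnb2f/f-labelled library being above every control, but the margin was small and controls 1 and 4 were the lowest. The log2 fold change was 0.29 ± 0.17 (edgeR, p = 0.122, adjusted p = 0.527; exact permutation test, two-sided p = 0.114). Of the 39 genes, 2 had groups that did not overlap, 1 in each direction, compared to 11.3% of all genes (5.05% higher, 6.30% lower).

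Atp6v1e1, a stator subunit of the peripheral stalk, was the V1 gene with the highest level per length, 106 ± 17.7 CPM per kb of exon in the controls (SD, n = 4). Its values were 103, 113 and 114 CPM in the Efnb2f/f-labelled libraries and 128, 115, 109.6 and 157 CPM in the controls, with control 4 highest and control 1 next (-0.21 ± 0.17 on the log2 scale). Atp6v1g1, another stator subunit, had the lowest, 14.2 ± 1.47 CPM per kb. It was at 15.3, 17.4 and 15.7 CPM in the Efnb2f/f-labelled libraries and 15.5, 15.1, 13.9 and 17.7 CPM in the controls, groups that covered much the same range (0.053 ± 0.16). Atp6v1h, which couples ATP hydrolysis to rotation, was at 44.5, 48.9 and 40.6 CPM in the Efnb2f/f-labelled libraries and 39.2, 46.0, 38.3 and 38.1 CPM in the controls. Controls 1, 3 and 4 were close together and below the Efnb2f/f-labelled libraries, and control 2 was among these (0.14 ± 0.15). The catalytic Atp6v1a gave 125, 116 and 120.3 CPM against 132, 136, 114 and 106 CPM, with the Efnb2f/f-labelled libraries inside the range of the controls. The nucleotide-binding Atp6v1b2 gave 97.0, 96.7 and 98.4 CPM against 142, 104, 89.3 and 138 CPM. Atp6v1f, a small subunit of the rotor, gave 32.9, 38.1 and 39.2 CPM against 46.9, 36.4, 30.1 and 55.2 CPM. In both Atp6v1b2 and Atp6v1f controls 1 and 4 were the highest of 7 libraries. They were the lowest in Atp6v1d, of the same rotor, which gave 56.0, 59.7 and 59.5 CPM against 49.9, 60.1, 56.6 and 51.2 CPM.

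The V0 sector was the role with the lowest median, -0.45, and all 5 genes had a lower mean in the Efnb2f/f-labelled libraries, none past the test. Without controls 1 and 4 the median was -0.046 and 4 of 5 were lower, and with the parent cross block it was 0.11 and 1 of 5 was lower. All 5 were lower with limma (median -0.073), with the dependence on GC content and length removed (-0.34), and without each library in turn. Atp6v0a1, the large subunit that lines the proton path, lies on chromosome 11 from 101009422 to 101063719 and was at 128, 135 and 132 CPM in the Efnb2f/f-labelled libraries and 137, 144, 143 and 176 CPM in the controls. All 3 Efnb2f/f-labelled libraries were below all 4 controls, although the nearest libraries of the groups differed by less than 2 CPM and control 4 stood well above the rest. The log2 fold change was -0.18 ± 0.15 (edgeR, p = 0.265, adjusted p = 0.617; exact permutation test, two-sided p = 0.0571, where the smallest possible is 0.0286).

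The other V0 genes overlapped between the genotypes, and in each of them controls 1 and 4 were the highest of the 7 libraries. Atp6v0b, a subunit of the proton-carrying ring, had the highest level per length of the sector, 113 ± 29.5 CPM per kb in the controls. It was at 78.9, 86.6 and 92.4 CPM in the Efnb2f/f-labelled libraries and 135, 89.3, 84.2 and 139.9 CPM in the controls, so that controls 2 and 3 lay among the Efnb2f/f-labelled libraries (-0.38 ± 0.22). Atp6v0c, the main ring subunit, had the lowest level per length, 34.8 ± 12.6 CPM per kb, and was at 27.5, 29.2 and 31.5 CPM in the Efnb2f/f-labelled libraries and 45.7, 30.7, 26.1 and 57.8 CPM in the controls. The difference was -0.45 ± 0.27 (log2) with all libraries and 0.054 without controls 1 and 4. Reads of Atp6v0c may be shared with a processed copy, Atp6v0c-ps2, which is also listed. Atp6v0d1, which links the ring to the V1 stalk, gave 73.9, 85.2 and 91.0 CPM against 131, 87.1, 85.4 and 166 CPM. The small Atp6v0e gave 43.1, 48.8 and 51.3 CPM against 77.2, 52.3, 47.4 and 102 CPM. Without controls 1 and 4, the log2 fold changes of Atp6v0b, Atp6v0d1, Atp6v0e and Atp6v0a1 were -0.011, -0.046, -0.061 and -0.12.

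The accessory subunits, which guide assembly of the pump, differed in opposite ways across the control libraries. Atp6ap1 was at 166, 185 and 205 CPM in the Efnb2f/f-labelled libraries and 264, 179.6, 165 and 309 CPM in the controls, with controls 1 and 4 highest. Atp6ap2, also known as the prorenin receptor, was at 101, 90.5 and 79.3 CPM in the Efnb2f/f-labelled libraries and 78.5, 105, 98.7 and 71.2 CPM in the controls, with controls 1 and 4 lowest. Their log2 fold changes were -0.31 ± 0.25 and 0.031 ± 0.19. Without controls 1 and 4 both signs changed, to 0.11 and -0.17. Per length Atp6ap1 was the more abundant in the controls, at 105 ± 31.3 CPM per kb, and Atp6ap2 the less abundant, at 37.3 ± 6.83 CPM per kb.

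**Figure D2:**
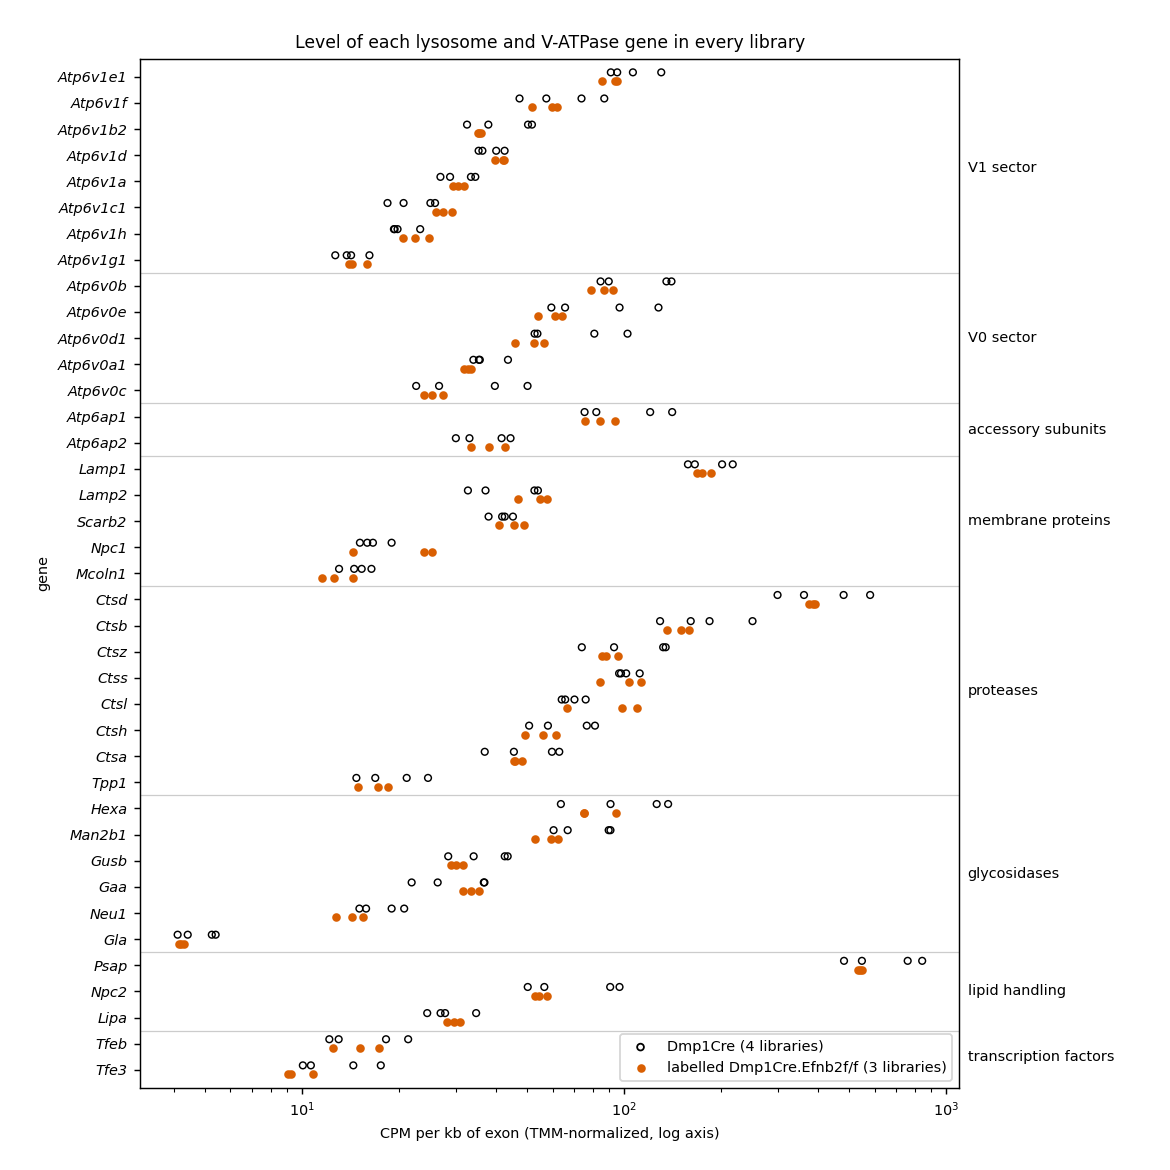
Each row is 1 of the 39 genes, grouped by role, and each point is 1 library on a log axis of TMM-normalized CPM per kb of exon, open for Dmp1Cre (4 libraries) and filled for the Efnb2f/f-labelled libraries (3 libraries). Levels in the controls ran from a mean of 4.80 for Gla to 658 for Psap, and the groups overlap in all genes but Atp6v1c1 and Atp6v0a1.

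Among the membrane proteins, 3 of 5 had a higher mean in the Efnb2f/f-labelled libraries (median log2 fold change 0.11). With the parent cross block 1 of 5 was higher (median -0.028), as with the dependence on GC content and length removed (-0.021). Without controls 1 and 4 there were 3 of 5 (0.13), and with limma 4 of 5 (0.15). Lamp1, a heavily glycosylated protein that coats the inner face of the lysosomal membrane, was the most abundant per length, at 186 ± 28.5 CPM per kb in the controls. It was at 379, 395 and 419.6 CPM in the Efnb2f/f-labelled libraries and 455, 374, 356 and 491 CPM in the controls, and the groups overlapped (-0.075 ± 0.19). Lamp2, its relative with a part in autophagy, gave 238, 226 and 192 CPM against 153, 222, 217 and 135 CPM, with controls 1 and 4 the lowest of 7 where they had been the highest for Lamp1. Scarb2, the receptor that delivers glucocerebrosidase to lysosomes, gave 104, 96.0 and 86.6 CPM against 95.4, 80.1, 88.3 and 90.0 CPM. Mcoln1, a lysosomal cation channel, was the least abundant of the 5 at 14.8 ± 1.43 CPM per kb, and was at 23.1, 25.2 and 28.8 CPM in the Efnb2f/f-labelled libraries and 30.7, 26.1, 29.1 and 32.9 CPM in the controls (-0.21 ± 0.16).

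Npc1, which exports cholesterol from lysosomes, lies on chromosome 18 from 12189694 to 12236506 and was at 125, 132 and 75.2 CPM in the Efnb2f/f-labelled libraries and 98.9, 83.1, 78.9 and 86.6 CPM in the controls. Efnb2f/f-labelled replicates 1 and 2 were above all controls, while replicate 3 was below all of them. These replicates 1 and 2 shared a parent cross, and replicate 3 came from another, the cross of control 3. The study also collected its samples on different days, 2 Dmp1Cre.Efnb2f/f and 3 controls on 1 day and 1 of each genotype on another. The labels do not give the day of each library. On the log2 scale the fold change was 0.35 ± 0.21 in edgeR (adjusted p = 0.533) and 0.65 in limma (adjusted p = 0.0216). Without replicate 3, edgeR gave 0.57 with an adjusted p of 0.534.

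Of the 8 proteases, 7 had a lower mean in the Efnb2f/f-labelled libraries (median log2 fold change -0.18). The direction turned without controls 1 and 4, with 7 of 8 higher and a median of 0.10, and limma gave 6 of 8 higher and a median of 0.072. With the dependence on GC content and length removed, 6 of 8 were lower (-0.099). The exception in the fit of all libraries was Ctsl, the cysteine protease cathepsin L, on chromosome 13 from 64361890 to 64370772, which was at 194, 217 and 131 CPM in the Efnb2f/f-labelled libraries and 149.9, 129, 126 and 138 CPM in the controls. Replicates 1 and 2 were above all controls, as in Npc1, and replicate 3 lay among the controls. Its log2 fold change was 0.41 ± 0.20 in edgeR (adjusted p = 0.517) and 0.74 in limma (adjusted p = 0.0147). In limma, the quality weights were 1.39, 7.28 and 0.713 for the Efnb2f/f-labelled libraries and 0.193, 3.26, 1.32 and 0.168 for the controls, so that replicate 2 and control 2 counted most and controls 1 and 4 least. Whether the weights account for the calls was not tested.

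Ctsd, the main aspartic protease of lysosomes, had the highest level per length of the proteases, 431 ± 125 CPM per kb in the controls. It was at 753, 763 and 732 CPM in the Efnb2f/f-labelled libraries and 939, 708, 586 and 1135 CPM in the controls. The Efnb2f/f-labelled libraries all lay between control 2 and control 1, inside the range of the controls (-0.17 ± 0.26). Tpp1, a tripeptidyl peptidase, was lowest per length at 19.4 ± 4.41 CPM per kb, and was at 64.5, 52.3 and 60.1 CPM in the Efnb2f/f-labelled libraries and 73.9, 59.0, 51.6 and 86.1 CPM in the controls (-0.20 ± 0.20). The cysteine protease Ctsb gave 645, 711 and 756 CPM against 874, 764, 614 and 1189 CPM. Ctsz, of the same family, gave 119, 123 and 134 CPM against 188, 129.8, 103 and 184 CPM. In Ctsb and Ctsz, as in Ctsd and Tpp1, controls 1 and 4 were above the other 5 libraries. Ctsh, an aminopeptidase, gave 79.9, 99.5 and 90.9 CPM against 132, 94.2, 82.4 and 124 CPM. Ctsa, a carboxypeptidase that protects other lysosomal enzymes, gave 169, 167 and 177 CPM against 231, 167, 136 and 219.5 CPM. In these also controls 1 and 4 were the highest of 7 libraries. Ctss, a cysteine protease of antigen-presenting cells, gave 140.5, 153 and 114 CPM against 133, 152, 138 and 131 CPM, with no such order.

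All 6 glycosidases had controls 1 and 4 as the highest of the 7 libraries, and 5 of 6 had a lower mean in the Efnb2f/f-labelled libraries (median log2 fold change -0.31). The median was -0.029 without controls 1 and 4, with 4 of 6 lower, and with the parent cross block it was 0.11 with 1 of 6 lower. With limma (-0.12) and with the dependence on GC content and length removed (-0.24), 5 of 6 were lower. Hexa, the alpha subunit of beta-hexosaminidase A, was the most abundant per length, at 104 ± 33.6 CPM per kb in the controls, and was at 141, 141 and 176 CPM in the Efnb2f/f-labelled libraries and 256, 169, 119 and 236 CPM in the controls. Control 3 was below every Efnb2f/f-labelled library and control 1 was far above it. The SD of the controls, 62.7 CPM, was larger than the difference between the means, 152 and 195 CPM (-0.35 ± 0.27). Gla, alpha-galactosidase A, was the least abundant of the 39 genes, at 4.80 ± 0.63 CPM per kb, and was at 12.6, 12.8 and 13.1 CPM in the Efnb2f/f-labelled libraries and 16.4, 13.4, 12.5 and 15.9 CPM in the controls (-0.18 ± 0.17). Man2b1, acid alpha-mannosidase, gave 229.7, 269 and 257 CPM against 393, 289, 261 and 388 CPM. Gusb, beta-glucuronidase, gave 73.9, 71.4 and 77.6 CPM against 105, 83.8, 69.9 and 107 CPM. Neu1, a sialidase, gave 49.2, 55.1 and 59.6 CPM against 73.1, 60.9, 58.1 and 80.0 CPM.

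Gaa, which degrades glycogen in lysosomes, was the glycosidase with a higher mean in the Efnb2f/f-labelled libraries. It lies on chromosome 11 from 119267963 to 119285458 and was at 127, 134 and 120.3 CPM in the Efnb2f/f-labelled libraries and 140.0, 83.2, 100.2 and 139 CPM in the controls. The Efnb2f/f-labelled libraries were all above controls 2 and 3 and all below controls 1 and 4. The log2 fold change was 0.14 ± 0.21 in edgeR (adjusted p = 0.774), 0.48 without controls 1 and 4 (adjusted p = 0.146), and 0.59 in limma (adjusted p = 0.0157).

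Of the genes of lipid handling, Psap, the precursor of the saposins that help degrade sphingolipids, was the most abundant of the 39 genes per length, at 658 ± 171 CPM per kb in the controls. It was at 1458, 1478 and 1499 CPM in the Efnb2f/f-labelled libraries and 2076, 1496, 1317 and 2302 CPM in the controls. Controls 1 and 4 were well above the other 5 libraries, and the Efnb2f/f-labelled libraries were close together (-0.28 ± 0.27). Npc2, which passes cholesterol to Npc1, showed the same order, with 173, 178 and 188 CPM against 316, 185, 164 and 296 CPM. Lipa, the acid lipase that releases cholesterol from its esters, was the least abundant of the 3 at 28.5 ± 4.40 CPM per kb. It was at 91.8, 87.9 and 83.9 CPM in the Efnb2f/f-labelled libraries and 80.1, 82.7, 72.8 and 103 CPM in the controls. Control 4 was the highest of all, and the other controls were below every Efnb2f/f-labelled library (0.052 ± 0.16).

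The transcription factors were low in level. Tfeb was at 35.4, 42.8 and 49.1 CPM in the Efnb2f/f-labelled libraries and 51.6, 34.4, 36.8 and 60.4 CPM in the controls, or 16.2 ± 4.38 CPM per kb in the controls, and its groups overlapped widely (-0.11 ± 0.24, sign reversed to 0.26 without controls 1 and 4). Tfe3 was at 30.3, 29.7 and 35.4 CPM in the Efnb2f/f-labelled libraries and 47.3, 34.9, 33.0 and 57.5 CPM in the controls, or 13.2 ± 3.51 CPM per kb in the controls. Control 3 lay among the Efnb2f/f-labelled libraries and control 2 just below the highest of them (-0.44 ± 0.22; edgeR, adjusted p = 0.517). Both factors had controls 1 and 4 as the highest of the 7 libraries, as had 26 of the 39 genes.

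The controls spread more widely than the Efnb2f/f-labelled libraries. The median ratio of the highest to the lowest library was 1.17 in the Efnb2f/f-labelled libraries and 1.59 in the controls, and the controls had the wider range in 35 of 39 genes. Among all genes tested the ratios were 1.24 and 1.70, and the controls were wider in 88.5%, so this was not particular to the lysosome and V-ATPase genes, and 4 libraries range more widely than 3 by number alone. Summed over the 39 genes, the level was 6606, 6871 and 6781 CPM in the Efnb2f/f-labelled libraries and 8573, 6777, 6004 and 9451 CPM in the controls. Controls 1 and 4 were the highest, control 3 was the lowest, and control 2 was with the Efnb2f/f-labelled libraries.

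Gene by gene, controls 1 and 4 were both above the other 5 libraries in 26 of 39 genes (66.7%), compared to 25.6% of all genes tested, and both below them in 4 (10.3%), compared to 26.1%. The 4 were Atp6ap2, Atp6v1c1, Atp6v1d and Lamp2. Controls 1 and 4 were picked for standing apart across all genes, and these shares are a description. By role the order held in 4 of 5 V0 genes, 6 of 8 proteases, 6 of 6 glycosidases, 2 of 3 genes of lipid handling and 2 of 2 transcription factors. In the V1 sector it held in 3 of 8, in the accessory subunits in 1 of 2, and in the membrane proteins in 2 of 5. Control 4 alone held the highest value of 20 genes and control 1 of 9, while control 3 held the lowest value of 18.

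**Figure D3:**
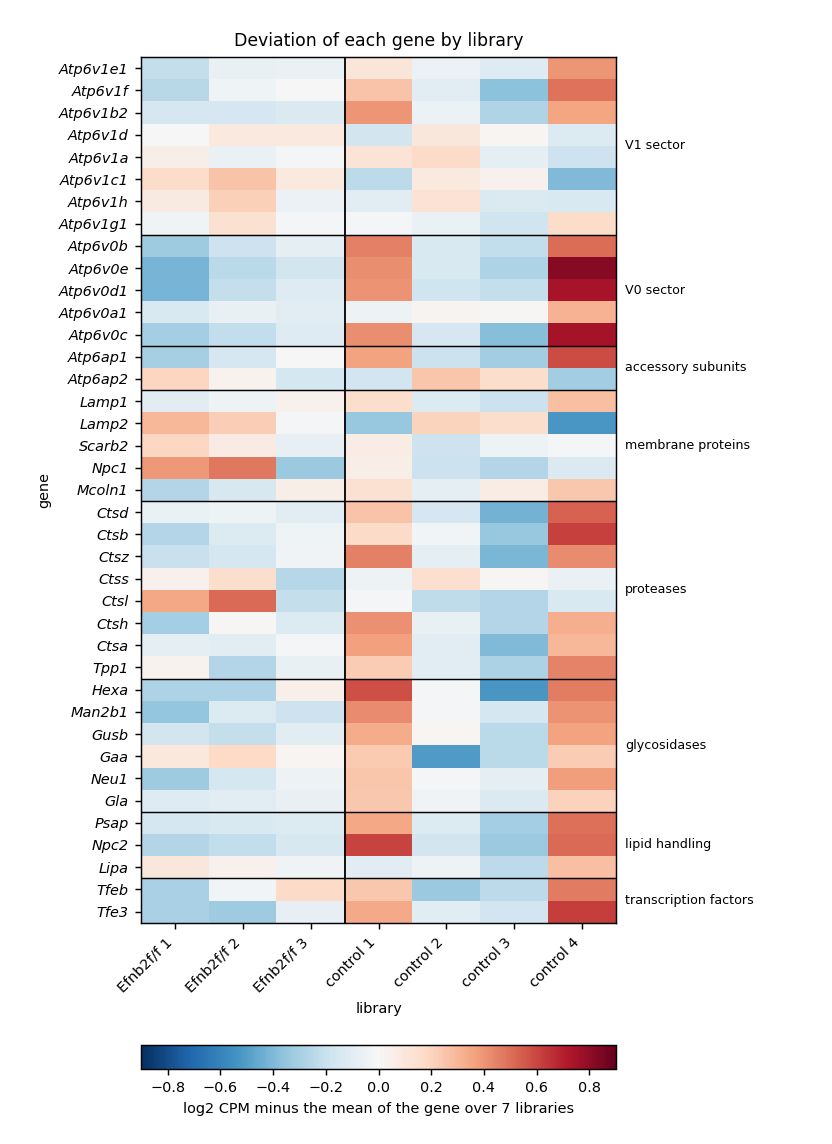
Colors give each library's log2 CPM minus the mean of the gene over the 7 libraries, with genes in rows grouped by role and libraries in columns, the 3 Efnb2f/f-labelled ones to the left of the line. Controls 1 and 4 are red in most rows (median deviations 0.24 and 0.36) and control 3 is blue (median -0.23), whereas the rows of Atp6v1c1, Atp6ap2 and Lamp2 are blue in controls 1 and 4.

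The base composition of the transcripts moved with this order. The 26 genes with controls 1 and 4 highest had a GC content of 44.8% to 63.2% (median 52.2%), and the 4 genes with them lowest had 38.7% to 44.4%. Across the 39 genes, Spearman's rho between GC content and the deviation in a library was 0.73 in control 1 and 0.64 in control 4, and it was -0.48 and -0.55 in controls 2 and 3. In the Efnb2f/f-labelled libraries it was -0.58, -0.50 and 0.13. All genes tested gave 0.63 and 0.59 for controls 1 and 4, -0.50 and -0.52 for controls 2 and 3, and -0.47, -0.43 and -0.11 for the Efnb2f/f-labelled libraries. The points of a library share its depth and its preparation, and these values are descriptions across genes. Each deviation is from the mean of the gene over all libraries, so a rise in some libraries is tied to a fall in others. After the dependence of each library on GC content and length, fitted over all genes, was removed, controls 1 and 4 were still above the other 5 libraries in 26 of the 39 genes, 18 of them the same as before, compared to 16.3% of all genes. They were below the others in 0, compared to 14.7%. The median deviations of the 39 genes in controls 1 and 4 were then 0.21 and 0.22.

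**Figure D4:**
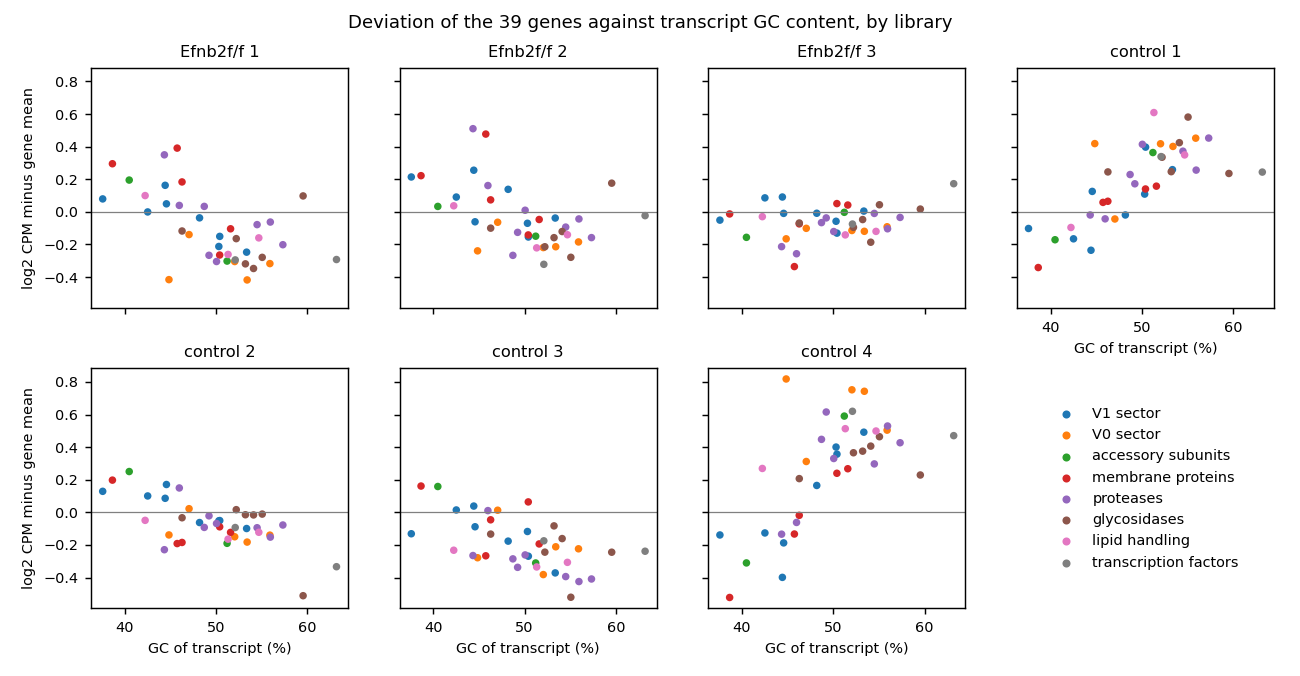
For each library, the log2 CPM minus the gene mean (y axis) is plotted against the GC content of the transcript in percent (x axis), with 1 point for each of the 39 genes colored by role. The points climb with GC content in controls 1 and 4 (rho 0.73 and 0.64), descend in controls 2 and 3 and in Efnb2f/f-labelled replicates 1 and 2, and are nearly level in replicate 3. The gene mean is over all libraries, so the slopes are tied to each other.

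Macrophages and osteoclasts are rich in lysosomes, and their markers followed this order in part. The 9 macrophage markers summed to 644 to 715 CPM in the Efnb2f/f-labelled libraries and to 952, 697, 609 and 982 CPM in the controls, with controls 1 and 4 highest and control 3 lowest, as in the sum of the 39 genes. Controls 1 and 4 were both above the other 5 libraries in 5 of the 9 (Adgre1, Csf1r, C1qa, C1qb and C1qc) and in none were they both below. The 8 osteoclast markers did not follow it singly: only Mmp9, 1 of 8, had controls 1 and 4 above the other 5 libraries. Their sum, to which Mmp9 added the most in each library, was 1184 to 1249 CPM in the Efnb2f/f-labelled libraries and 2655, 1234, 762 and 1314 CPM in the controls. The order was not particular to macrophages: it held in 5 of 7 neutrophil markers and in 5 of 7 erythroid markers. In 1 neutrophil marker, S100a9, controls 1 and 4 were instead both below the other 5 libraries. It held in 2 of 5 osteoblast markers, in 1 of 5 B-lineage markers and in no osteocyte, skeletal muscle, adipocyte or endothelial marker. Osteoblast markers were at 40199 CPM in control 1 and 19761 CPM in control 4, and at 7926 to 13736 CPM in the other 5 libraries. No marker was at 0 in every library, and none of the macrophage or osteoclast markers is among the 39 genes. The part of any of these cell types in the values of the lysosome and V-ATPase genes was not tested.

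Genes of the same pathway outside the list were 74, of which 69 passed the filter on low counts (Atp6v1b1, Atp6v1e2, Atp6v1g3, Atp6ap1l and Mcoln3 did not). They comprised other V-ATPase isoforms, other lysosomal proteins and regulators of Tfeb and of mTORC1. In 24 the mean was higher in the Efnb2f/f-labelled libraries and in 45 lower, with a median log2 fold change of -0.11, and 0 of 69 had an adjusted p below 0.05 in edgeR. An unadjusted p below 0.05 was found for 3 of 69 (9.66% of all genes), 1 higher and 2 lower. Groups did not overlap in 6 of 69, compared to 11.3% of all genes. These 3 genes were picked by their p, so their permutation tests are descriptions and add no support. Cln3, a membrane protein of endosomes and lysosomes on chromosome 7 from 126571207 to 126585817, was at 30.3, 29.6 and 29.9 CPM in the Efnb2f/f-labelled libraries and 47.5, 48.4, 48.3 and 39.3 CPM in the controls. All 3 Efnb2f/f-labelled libraries were within 1 CPM of each other and below all 4 controls, controls 1 and 4 included. The log2 fold change was -0.62 ± 0.15 (edgeR, p = 0.0027, adjusted p = 0.511; exact permutation test, two-sided p = 0.0286, the smallest possible). On the same libraries, DESeq2 and limma gave adjusted p of 0.0232 and 0.00495 (0.477% and 14.9% of all genes were called). In edgeR the direction was kept without each library in turn. Cln3 overlaps Apobr in the genome, and the strand setting of the counting is not given in the sources used here.

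Galns, a sulfatase of keratan and chondroitin sulfate, was at 47.1, 53.0 and 60.4 CPM in the Efnb2f/f-labelled libraries and 88.0, 63.9, 64.4 and 99.0 CPM in the controls (-0.56 ± 0.21; edgeR, p = 0.0248, adjusted p = 0.511; exact permutation test, two-sided p = 0.0857), and it overlaps Trappc2l. Its groups did not overlap, but controls 1 and 4 were again the highest, and the value was -0.26 without them. Mcoln2, a relative of Mcoln1, was low, at 7.73, 8.50 and 7.17 CPM in the Efnb2f/f-labelled libraries and 5.02, 5.70, 5.97 and 6.25 CPM in the controls, with each Efnb2f/f-labelled library above each control (0.44 ± 0.18; edgeR, p = 0.0409, adjusted p = 0.511; exact permutation test, two-sided p = 0.0286). Isoforms and enzymes used by osteoclasts differed in their spread among the controls, with a ratio of the highest to the lowest control of 1.35 for Tcirg1, 4.20 for Atp6v0d2 and 6.24 for Ctsk. Tcirg1, the osteoclast form of the V0 a subunit, gave 152, 153 and 151 CPM against 194, 168, 144 and 188 CPM. Atp6v0d2, the osteoclast form of the d subunit, gave 43.9, 26.5 and 24.1 CPM against 30.7, 31.7, 7.55 and 8.10 CPM. Ctsk, the collagen-degrading cathepsin K, gave 281, 279 and 233 CPM against 469, 219, 75.2 and 139 CPM. Of the relatives of Tfeb, Mitf gave 23.2, 22.05 and 14.3 CPM against 18.8, 16.0, 15.7 and 8.97 CPM. Tfec gave 13.7, 13.1 and 15.7 CPM against 11.4, 19.0, 17.9 and 13.7 CPM, and the groups overlapped in both.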

How the data were processed

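RNA from marrow-flushed femora was sequenced as paired-end reads (bcl2fastq 2.17.1.14 is among the tools in the submitters' processing notes). Alignment to mm10 (Rsubread) and counting per Entrez gene (featureCounts) were done by the authors, who deposited raw counts per gene and library, without normalization, filter or pooling. The strand setting is not given in the sources used here. In the table of all libraries 26 symbols had become dates, so symbols were read from the single libraries.

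The 39 genes and the lists of other pathway genes and markers were chosen with earlier results of these data known. A gene had to reach 0.65 CPM in 3 or more libraries (16302 did), and 1204 of the classes removed in the study were left out. The 15098 left were tested with edgeR 4.0.16 (R 4.3.3; TMM, robust quasi-likelihood, Benjamini-Hochberg adjustment, threshold 0.05). Standard errors came from the fold change and F statistic. DESeq2 1.42.0 and the study's limma pipeline (3.58.1; prior count 2, quantile normalization, quality weights) were run beside it, without the study's block on the day of collection, which the labels do not give. Exact permutation tests covered all 35 splits of log2(CPM + 0.5). GC content was that of the longest GENCODE transcript on GRCm38. The tests were tried on simulated counts.

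Values in every library with fold changes are given for genes past a threshold, for groups that did not overlap, for the highest and lowest level per length in each role, for Tfeb and Tfe3, and for genes with a control far from the rest. Npc1, Ctsl and Gaa were taken up after limma had called them, and Tcirg1, Atp6v0d2, Ctsk, Mitf and Tfec after their values were seen. Beyond 4 named parent crosses and the days of collection, nothing says how replicates were kept apart, so p-values measure the spread between these libraries. Atp6v1b2, Npc1, Ctsa, Ctsb, Ctsz and Hexa (6 of 39) overlap another gene and could share its reads. Leaving out controls 1 and 4 and removing the GC and length trend were alternatives added after the data were seen.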

Additional observations from a re-analysis of the deposited data

Results flagged for a closer look

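In 3 results a single control lay far from the other 3, by the gap to its nearest neighbor as a share of the whole range of the controls, beyond Dixon's critical value. Atp6v1h was highest in control 2, with a ratio of 0.872 (39.2, 46.0, 38.3 and 38.1 CPM in controls 1 to 4). Atp6v0a1 was highest in control 4, with 0.833 (137, 144, 143 and 176 CPM). Cln3 was lowest in control 4, with 0.903 (47.5, 48.4, 48.3 and 39.3 CPM). Of the 42 genes checked, about 1 in 20, or 2.1, would be found by chance.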

How the results depend on the processing

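Standard errors of 0.14 to 0.27 from 7 libraries set how small a difference could be detected. Of the 39 genes, 0 had an adjusted p below 0.05 under every alternative but limma, which called 3. At an unadjusted p below 0.05, higher genes numbered 4 with limma, 1 with scaling by library size only (Ctsl, 5.68% of all genes), 1 without controls 1 and 4, 1 with the GC and length trend removed, and 0 to 2 with each library left out. Lower genes numbered 1 with DESeq2, 1 with limma (Tfe3), 3 with the GC and length trend removed and 0 to 9 with each library left out. The median log2 fold change was 0.13 with parent cross as a block, 0.043 without controls 1 and 4 and 0.0022 with limma. It was -0.097 with library size only and -0.28 to -0.095 with each library left out. With upper-quartile scaling, DESeq2 and the trend removed it was -0.18, -0.22 and -0.19. The signs that changed, of 39, numbered 28 with the parent cross block, 17 without controls 1 and 4, 12 with limma, 8 with the trend removed, 4 with the replicate block and 3 with library size only, which moved the median of all genes to 0.094. With the parent cross block, the values compare Efnb2f/f-labelled replicate 3 with control 3, the only libraries of both genotypes from 1 cross. Apart from this and from leaving out libraries, the causes were not tested.

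Of the 22 members whose fold changes are given in full, 14 turned sign with the parent cross block, to Atp6v1e1 0.060, Atp6v0b 0.13, Atp6v0c 0.27, Atp6ap1 0.31, Atp6ap2 -0.32, Lamp1 0.24, Npc1 -0.069, Ctsd 0.32, Tpp1 0.22, Gla 0.068, Hexa 0.57, Psap 0.19, Tfeb 0.42 and Tfe3 0.10. Without controls 1 and 4, 9 of these 22 turned, to Atp6v0c 0.054, Atp6ap1 0.11, Atp6ap2 -0.17, Lamp1 0.13, Ctsd 0.22, Tpp1 0.095, Hexa 0.083, Psap 0.074 and Tfeb 0.26. With limma, 6 of the 22 turned, to Atp6v1e1 0.0022, Atp6ap1 0.083, Atp6ap2 -0.12, Lamp1 0.15, Ctsd 0.080 and Tfeb 0.18. With the GC and length trend removed 5 turned, to Atp6v1h -0.27, Atp6ap2 -0.28, Ctsd 0.015, Lipa -0.30 and Tfeb 0.12, and with library size only 1, Lamp1, to 0.019. With each library left out, those of the 22 that turned ran as follows, Atp6ap2 from -0.063 to 0.13, Lamp1 from -0.15 to 0.0081, Ctsd from -0.31 to 0.0081, Lipa from -0.014 to 0.16 and Tfeb from -0.23 to 0.051.

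Replicate numbers did not pair the libraries, since the deviations of same-numbered libraries correlated at -0.15, 0.071 and -0.44. With the replicate block, which leaves control 4 without a partner, 0 of 39 genes had an unadjusted p below 0.05, the median was -0.081, and Atp6ap2 -0.056, Lamp1 0.017, Ctsd 0.037 and Tfeb 0.064 changed sign. The other pathway genes with an unadjusted p below 0.05 numbered 3 of 69 (9.66% of all genes), and 1 with the replicate block (3.82% of all genes), 15 with limma (32.9%), 7 without controls 1 and 4 (17.5%), 6 with the trend removed (14.5%) and 1 to 6 with each library left out (2.87% to 15.8%).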
